A study of Cunninghamia lanceolata with 2 samples.

Results

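Genes for the synthesis of terpenoids, carotenoids and gibberellins were examined in roots of Chinese fir (Cunninghamia lanceolata), a conifer grown for timber. They were taken as all genes of the table whose KEGG pathway text names terpenoid backbone, monoterpenoid, diterpenoid, carotenoid, or sesquiterpenoid and triterpenoid biosynthesis, less any gene whose product name speaks of aminocyclopropanecarboxylate or cytochrome P450. This gave 105 of 32731 assembled genes. The 2 excluded phrases removed 0 genes, and 4 of the 5 pathways had members: 39 genes in the terpenoid backbone, 5 in the monoterpenoid, 20 in the diterpenoid and 41 in the carotenoid pathway, with 0 in the sesquiterpenoid and triterpenoid pathway. No gene belonged to more than 1 of them.

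Root RNA was sequenced from plantlets raised in diluted Hoagland solution and then kept for 4 months either at low phosphorus (LP, under 0.01 mM, the phosphorus left in distilled water) or at sufficient phosphorus (CK, 1 mM). Each group has 1 library, with 48502899 estimated reads in LP and 17848911 in CK. No test was therefore run, none of the differences could be checked against replicates, and "higher" and "lower" compare the LP library with the CK library alone. The number of plants behind a library is not given in the sources used here. Levels are in RPKM, reads scaled to gene length and library size. The log2 ratio of a gene is log2((LP + 1)/(CK + 1)) on RPKM, which understates the fold of low genes. Counts past or within 2-fold use this scale throughout, whereas the folds printed for single genes carry no pseudocount. The range beside a fold is its 95% interval (exact, Clopper-Pearson) computed from reads and library totals, and it covers counting error only. In bulk root RNA, fewer cells of a type and less RNA per cell cannot be told apart.

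All terpenoids are built from a pair of interconvertible units, isopentenyl and dimethylallyl diphosphate. Plants make these by the mevalonate pathway in the cytosol, which feeds sterols and sesquiterpenes, and by the methylerythritol phosphate (MEP) pathway in plastids, which feeds monoterpenes, diterpenes, carotenoids and the gibberellin and abscisic acid hormones. Prenyl diphosphate synthases join the units into longer chains. Terpene synthases then fold the chains into rings, as in the resin of conifers, and oxidases turn these skeletons into hormones and other products. Carotenoids arise from geranylgeranyl diphosphate through phytoene, and abscisic acid is cut from oxidised carotenoids.

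Of the 105 genes, 103 averaged at least 1 RPKM over both libraries and were kept. Among these, 12 were at least 2-fold higher and 10 at least 2-fold lower in LP, while 81 stayed within 2-fold. Of those 81, 8 low genes had a fold of at least 2 without the pseudocount, 4 higher and 4 lower. The shares, 11.7% and 9.71%, stand beside 8.68% higher and 16.2% lower among all 30843 kept genes, and beside 9.28% and 10.1% among the 7875 kept genes with a product name, which every terpenoid gene has. On the deposited scale, the share of these genes past 2-fold was thus close to that of named genes as a whole. Their median log2 ratio was 0.05, against -0.16 for all kept genes and -0.10 for those with a product name. A log2 ratio nearer to 0 than 0.5 was found in 54 of the 103. Scaling the libraries by trimmed mean of M values (TMM) moved the median of all kept genes from -0.16 to 0.05. It gave 15 higher and 6 lower genes in the set, or 14.6% and 5.83%, beside 10.6% and 11.5% of all kept genes. All 12 higher genes kept their place, and of the 10 lower genes 4 fell short of 2-fold while staying below 0.

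**Figure D1:**
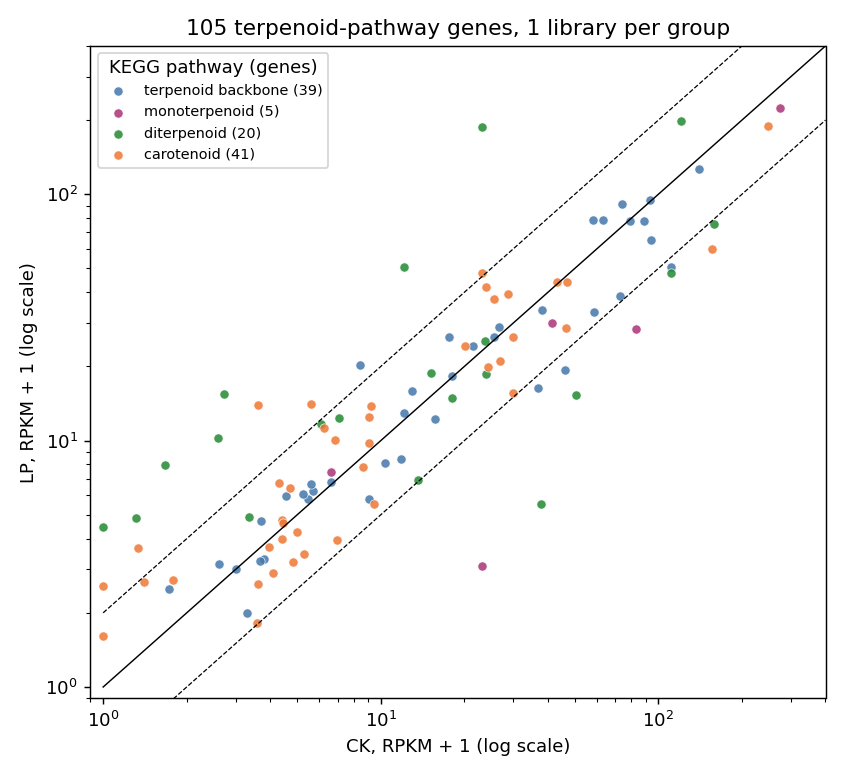
Level of each of the 105 genes in CK (horizontal) and LP (vertical), as RPKM + 1 on log scales, coloured by KEGG pathway. The solid line marks equal levels and the dashed lines 2-fold; most backbone (blue) and carotenoid (orange) genes lie between the dashed lines, and 11 of the 20 diterpenoid genes (green) lie outside them.

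The pathways differed in how far their genes lay apart. In the terpenoid backbone 1 of 39 genes was at least 2-fold higher and 3 were lower (median log2 ratio 0.03, range -1.24 to 1.28). In the carotenoid pathway 4 of 39 kept genes were higher and 1 was lower (median 0.03, range -1.38 to 1.96). In the diterpenoid pathway, which holds gibberellin synthesis, 7 of 20 were higher and 4 lower (median 0.63, range -2.78 to 3.02). Of those 7, comp7966_c0, comp4342_c0, comp131516_c0 and comp79354_c0 had only 0, 3, 4 and 9 reads in CK, so the count of higher genes leans on them. The median of the pathway fell to 0.21 when a mean of at least 5 RPKM was required, and likewise with at least 10 reads in each library. Of the 5 monoterpenoid genes, 0 were higher and 2 were lower (median -0.47). The summed level of the kept genes was 1113 RPKM under LP against 1259 RPKM under CK for the backbone, 287 RPKM and 423 RPKM for the monoterpenoid, 717 RPKM and 615 RPKM for the diterpenoid, and 761 RPKM and 866 RPKM for the carotenoid pathway. Under TMM scaling the backbone had 2 higher and 1 lower, the diterpenoid pathway 8 and 2, the carotenoid pathway 5 and 1, and the monoterpenoid genes again 0 and 2. The differences between pathways were not tested, since their genes share the same 2 libraries.

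**Figure D2:**
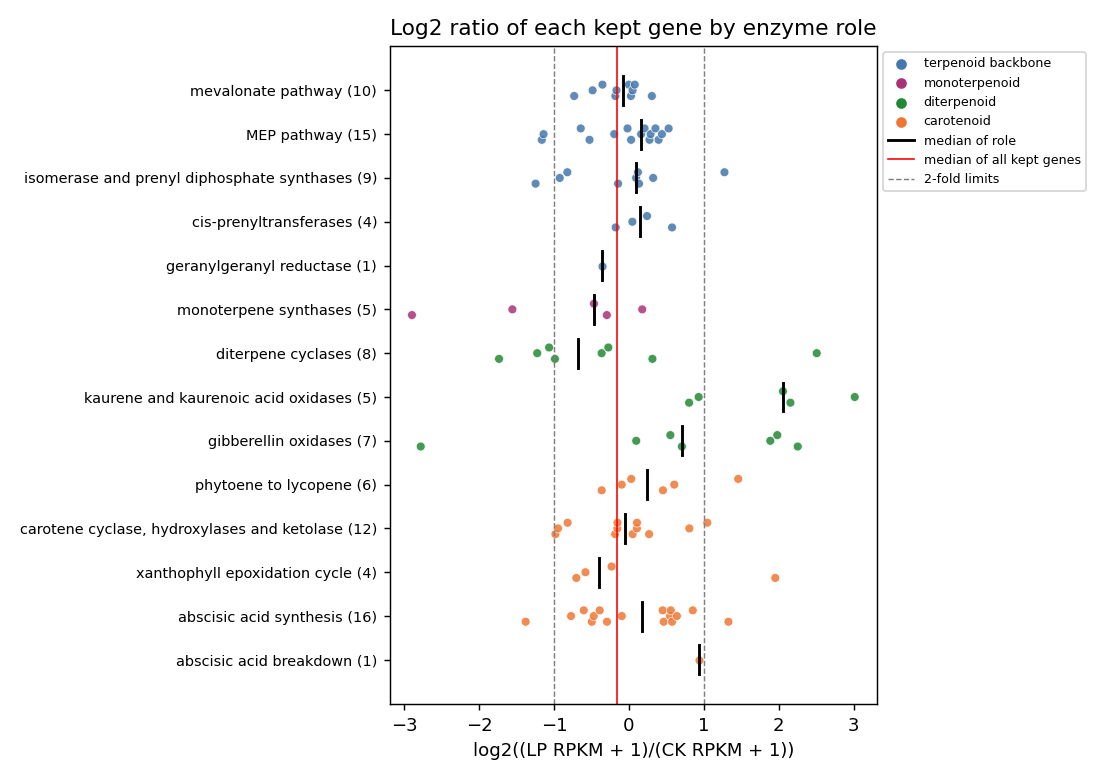
Log2 ratio of each of the 103 kept genes, log2((LP RPKM + 1)/(CK RPKM + 1)), by enzyme role with the number of genes in parentheses; black bars are medians of a role, the red line is the median of all kept genes (-0.16) and dashed lines are 2-fold. The mevalonate genes lie close to 0, the monoterpene synthases and diterpene cyclases mostly to the left, and the kaurene and kaurenoic acid oxidases all to the right of 0.

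On the log2 scale above, the 10 genes of the mevalonate pathway all stayed within 2-fold. Their log2 ratios ran from -0.73 to 0.31 (median -0.08), and their summed level was 270 RPKM under LP against 274 RPKM under CK. Hydroxymethylglutaryl-CoA synthase comp19996_c0, which makes the substrate of the next step, was the highest, with 90.7 RPKM under LP against 73.1 RPKM under CK (1.24-fold higher, 1.21 to 1.34). Acetyl-CoA C-acetyltransferase comp19650_c0, the entry enzyme, had 77.2 RPKM under LP against 87.6 RPKM under CK. The reductase that follows, hydroxymethylglutaryl-CoA reductase, is held to be the main point of control of this route. Its gene comp22136_c0 had 7.46 RPKM under LP against 10.8 RPKM under CK (1.45-fold lower, 1.22 to 1.71), and its other long copy, comp33303_c0, had 17.4 RPKM and 17.0 RPKM. The fragment comp11076_c0 of the same enzyme, on few reads, was 2.31-fold lower without the pseudocount (0.67 to 6.38). The single genes of mevalonate kinase (32.96 RPKM in LP, 37.1 RPKM in CK), phosphomevalonate kinase (11.3 RPKM, 14.7 RPKM) and diphosphomevalonate decarboxylase (25.5 RPKM, 24.6 RPKM) lay as close.

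The 15 genes of the plastid MEP pathway had a median log2 ratio of 0.16, with 0 at least 2-fold higher and 2 lower. Both lower genes encode 1-deoxy-D-xylulose-5-phosphate synthase, the entry enzyme, which is regarded as a main control point of plastid isoprenoid supply. The most abundant of its genes, comp27333_c0, had 49.6 RPKM under LP against 110 RPKM under CK (2.23-fold lower, 2.15 to 2.29). The second, comp21603_c0, had 15.4 RPKM under LP against 35.7 RPKM under CK (2.32-fold lower, 2.17 to 2.45). Together they made up 87.8% of the summed level of the 7 synthase genes in CK and 77.1% in LP, and that sum was 84.3 RPKM under LP against 166 RPKM under CK. The gene comp24848_c0 had 4.80 RPKM under LP against 8.05 RPKM under CK, and the other 4 genes of this enzyme lay at or under 5.05 RPKM in both libraries. Under TMM scaling the log2 ratios of the 2 lower genes were -0.89 and -0.93, short of 2-fold.

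On the log2 scale the genes of the later MEP steps all stayed within 2-fold. The kinase comp14989_c0 had 77.8 RPKM under LP against 57.0 RPKM under CK (1.36-fold higher, 1.30 to 1.44). Hydroxymethylbutenyl diphosphate synthase comp16125_c0, the most abundant gene of the route in LP, had 94.1 RPKM under LP against 92.1 RPKM under CK. The last enzyme, which releases both isoprene units, had its main gene comp25002_c0 at 64.2 RPKM under LP against 92.7 RPKM under CK. Its low second gene, comp7225_c0, had 1.5 RPKM against 0.73 RPKM on 141 and 25 reads, 2.08-fold higher without the pseudocount (1.35 to 3.32). The main cyclodiphosphate synthase gene comp14915_c0 had 77.2 RPKM under LP against 78.1 RPKM under CK. The reductoisomerase, the second enzyme, was represented by a fragment of 251 bases, comp107122_c0, with 3.72 RPKM under LP against 2.69 RPKM under CK on 34 and 9 reads. Without the synthase, the pathway spanned log2 ratios from -0.52 to 0.53.

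Isopentenyl-diphosphate isomerase comp24580_c0, which interconverts both units and was the most abundant backbone gene, had 126 RPKM under LP against 139 RPKM under CK. The table names 6 genes farnesyl diphosphate synthase, of which 5 carry a chloroplast term and the GO activity of a synthase that makes geranylgeranyl diphosphate, the precursor of diterpenes and carotenoids. Of these 5, 3 match the same protein entry, and all 3 were lower in LP under both the deposited scaling and TMM. The gene comp9209_c0 had 37.5 RPKM under LP against 72.0 RPKM under CK, comp9410_c0 had 32.2 RPKM and 57.6 RPKM, and comp14316_c0 had 18.4 RPKM and 45.0 RPKM (2.44-fold lower, 2.20 to 2.69). Assembled genes that match 1 entry can be pieces or near copies of a gene, so that their reads may be split between them. The fourth, comp20262_c0, stood at the other side with 19.4 RPKM under LP against 7.40 RPKM under CK (2.61-fold higher, 2.23 to 3.11), and the fifth, comp20880_c0, had 27.9 RPKM and 25.6 RPKM. The sixth, comp18245_c0, is the only one with a cytoplasm term and had 77.9 RPKM under LP against 62.0 RPKM under CK.

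The long-chain synthases and the cis-prenyltransferases, which make the side chains of quinones and the dolichol carrier of protein glycosylation, stayed within 2-fold. Of the 4 cis-prenyltransferase genes, comp23561_c0 was the highest, with 25.3 RPKM under LP against 16.6 RPKM under CK. Its fold was 1.52 by RPKM and 1.85 by reads per library total (1.57 to 2.17), and it passed 2-fold under TMM scaling. Such a gap over 1.1 times between both folds occurred in 6 genes of the set. The lowest, comp13649_c0, had 2.25 RPKM under LP against 2.67 RPKM under CK on 46 and 20 reads. Geranylgeranyl reductase comp9032_c0, which makes the phytyl chain of chlorophyll and tocopherol, had 7.14 RPKM under LP against 9.39 RPKM under CK.

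**Figure D3:**
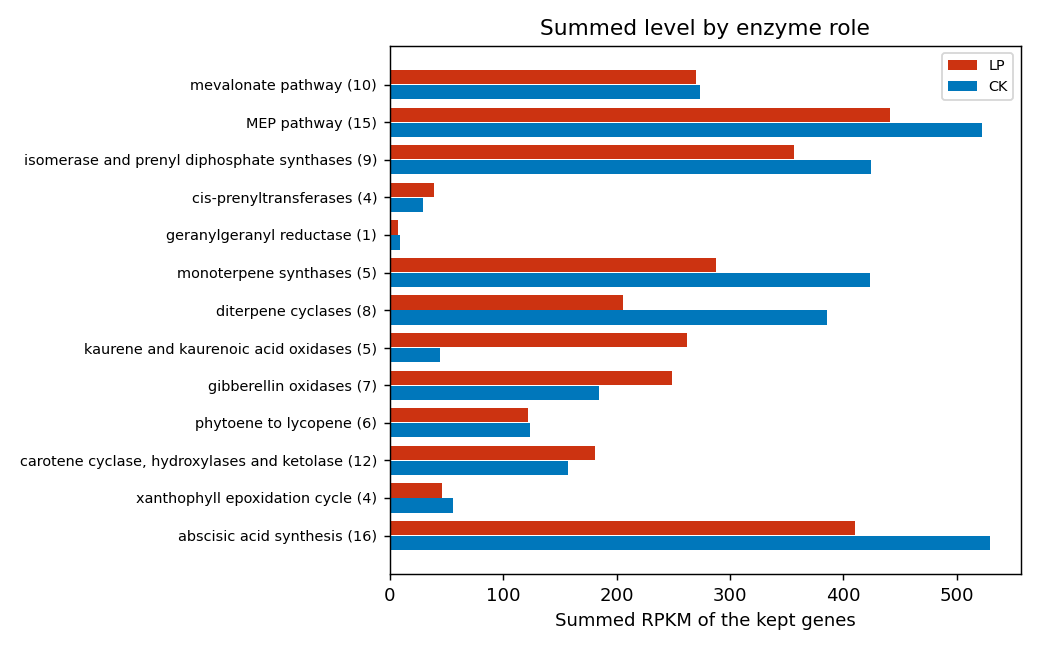
Summed RPKM of the kept genes of each enzyme role in LP (red) and CK (blue), with the number of genes in parentheses; the abscisic acid breakdown role, with 1 kept gene, is not drawn. The mevalonate genes have nearly equal bars (270 RPKM and 274 RPKM), the diterpene cyclases a shorter LP bar (205 RPKM against 386 RPKM), and the kaurene and kaurenoic acid oxidases a longer one (262 RPKM against 44.6 RPKM).

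The monoterpenoid pathway consists of 5 genes that the table names 1,8-cineole synthase, an enzyme that cyclises geranyl diphosphate to a volatile oil component. Of these, 2 carry no GO term, 2 carry general ones (lyase, magnesium ion binding) and 1 is annotated as pinene synthase, so the product of each is not settled by its name. The most abundant, comp26062_c0, had 223 RPKM under LP against 273 RPKM under CK and took 77.4% of their summed level in LP and 64.5% in CK. The gene comp22756_c0 had 27.3 RPKM under LP against 82.2 RPKM under CK (3.01-fold lower, 2.79 to 3.10). The gene comp13129_c0 had 2.11 RPKM under LP against 22.1 RPKM under CK (10.5-fold lower, 8.26 to 13.3), the lowest log2 ratio of the whole set at -2.90. The short gene comp10503_c0, the one with the pinene synthase term, had 28.9 RPKM under LP against 40.4 RPKM under CK, and comp16983_c0 had 6.47 RPKM and 5.60 RPKM. In all, 4 of the 5 lay below 0, under TMM scaling as well.

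Diterpene cyclases form ent-kaurene, the ring skeleton of gibberellins, in a pair of steps, and in conifers related enzymes form the resin acids. Of the 8 cyclase genes, 3 were at least 2-fold lower, 1 was higher, and the median log2 ratio was -0.67. Among the 4 named ent-copalyl diphosphate synthase, comp25292_c0 had 46.7 RPKM under LP against 110 RPKM under CK (2.36-fold lower, 2.27 to 2.44), and comp13203_c0 had 14.2 RPKM and 49.7 RPKM (3.49-fold lower, 3.06 to 3.93). The gene comp23631_c0 had 5.90 RPKM under LP against 12.7 RPKM under CK (2.15-fold lower, 1.66 to 2.49), and its log2 ratio of -0.99 fell just short of the limit. The exception was comp25900_c0, with 14.5 RPKM under LP against 1.73 RPKM under CK on 1485 and 65 reads (8.40-fold higher, 6.56 to 11). Of these 4 genes, comp13203_c0 and comp23631_c0 also carry levopimaradiene or abietadiene synthase terms, activities of conifer resin synthesis, and comp25900_c0 carries no GO term.

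The 4 genes named ent-kaurene synthase were led by comp23878_c0, with 74.7 RPKM under LP against 157 RPKM under CK (2.11-fold lower, 2.04 to 2.16). The other 3 stayed within 2-fold. The gene comp23747_c0, which matches the same protein entry, had 17.8 RPKM under LP against 14.1 RPKM under CK, comp24742_c0 had 17.6 RPKM and 22.9 RPKM, and comp6427_c0, which carries the levopimaradiene term, had 13.9 RPKM and 17.0 RPKM. The summed level of all 8 cyclases was 205 RPKM under LP against 386 RPKM under CK. Under TMM scaling comp25292_c0 and comp23878_c0 had log2 ratios of -0.98 and -0.82.

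The oxidation steps that follow lay on the other side. Ent-kaurene oxidase and ent-kaurenoic acid hydroxylase are membrane-bound monooxygenases that turn ent-kaurene into the first gibberellin. All 5 of the genes so named were above 0, 3 of them by at least 2-fold, and their summed level was 262 RPKM under LP against 44.6 RPKM under CK. Of the 4 genes named ent-kaurenoic acid hydroxylase, only 2 have GO terms that name ent-kaurenoate oxidase activity. The single ent-kaurene oxidase gene, comp25073_c0, had 49.5 RPKM under LP against 11.1 RPKM under CK, a fold of 4.45 by RPKM and 3.91 by reads per library total (3.50 to 4.37). The hydroxylase gene comp26628_c0 had 187 RPKM under LP against 22.2 RPKM under CK, a fold of 8.41 by RPKM and 6.39 by reads (5.87 to 6.98). Its log2 ratio of 3.02 was the highest of the set. It was assembled as 24 transcripts, more than any other gene of the set, so its RPKM depends on how reads were shared among them. The gene comp23425_c0, which matches the same entry, had 11.4 RPKM under LP against 6.10 RPKM under CK, and comp5032_c0 had 10.6 RPKM and 5.10 RPKM. The gene comp7966_c0, with general monooxygenase terms, had 3.46 RPKM from 132 reads under LP and no read among the CK reads (0), which makes it at least 16.2-fold higher, taking 3 reads as the CK floor.

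**Figure D4:**
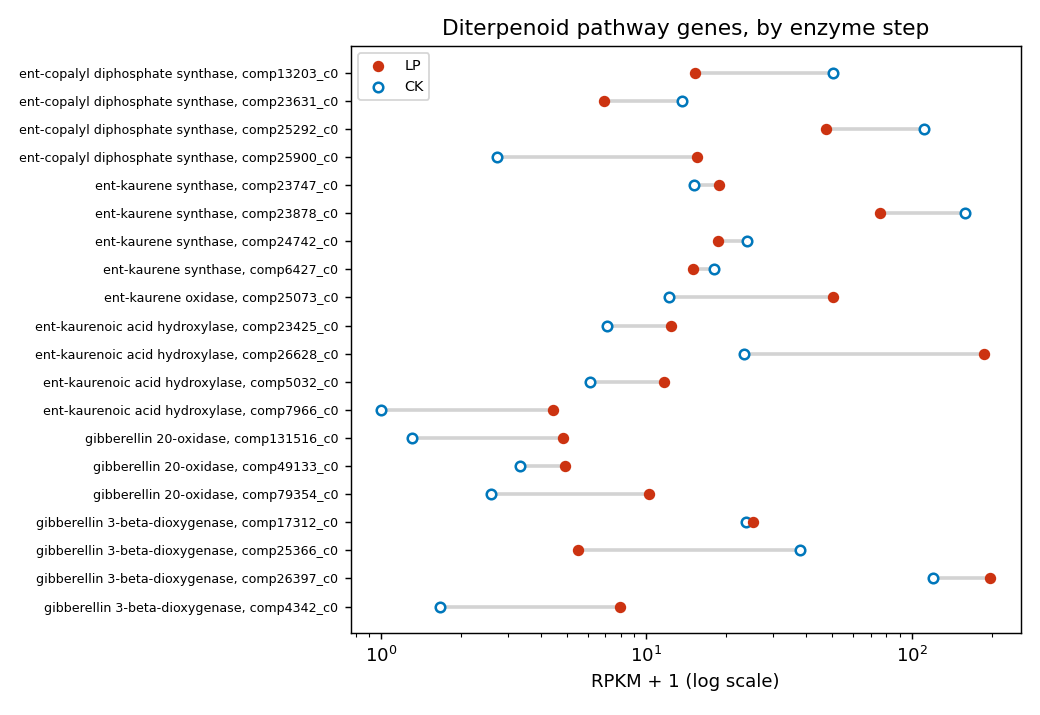
Level of the 20 diterpenoid pathway genes in LP (red, filled) and CK (blue, open) as RPKM + 1 on a log scale, listed by enzyme step from the cyclases at the top to the gibberellin oxidases at the bottom. Of the 8 cyclase genes 6 have LP to the left of CK, and 11 of the 12 oxidase genes below them have LP to the right.

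Soluble dioxygenases finish gibberellin synthesis, gibberellin 20-oxidase by removing a carbon and gibberellin 3-beta-dioxygenase by making the bioactive hormone. The 3 genes of the 20-oxidase were low, and their summed level was 17.0 RPKM under LP against 4.25 RPKM under CK. The gene comp79354_c0 had 9.23 RPKM under LP against 1.59 RPKM under CK on 143 and 9 reads (5.81-fold higher, 3 to 13), and comp131516_c0 had 3.85 RPKM and 0.31 RPKM on 137 and 4 reads (12.6-fold higher, 4.81 to 46.9). The gene comp49133_c0, the one of the 3 whose GO terms name the 20-oxidase activity, had 3.92 RPKM under LP against 2.35 RPKM under CK. With so few reads in CK, the sizes of these folds are loosely set.

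The 4 genes named gibberellin 3-beta-dioxygenase stood at both ends. The gene comp25366_c0 had 4.53 RPKM under LP against 36.9 RPKM under CK (8.15-fold lower, 6.97 to 9.46). The most abundant, comp26397_c0, matches the same protein entry and had 196 RPKM under LP against 120 RPKM under CK, a fold of 1.64 by RPKM and 1.29 by reads (1.23 to 1.36). The gene comp17312_c0, with that entry too, had 24.3 RPKM under LP against 22.7 RPKM under CK. The short gene comp4342_c0 had 6.97 RPKM under LP against 0.67 RPKM under CK on 85 and 3 reads (10.5-fold higher, 3.45 to 51.6), but its GO terms name flavonol synthase and not the gibberellin enzyme. Across the 12 oxidation genes of the pathway, 6 were at least 2-fold higher and 1 was lower, against 1 and 5 of the 13 monoterpene and diterpene cyclases. Under TMM scaling these counts were 7 and 1 against 1 and 3. On the deposited scale the shares were 50% higher and 8.33% lower for the oxidation genes, beside 8.68% and 16.2% of all kept genes. Of the higher oxidation genes, comp7966_c0, comp4342_c0, comp131516_c0 and comp79354_c0 had only 0, 3, 4 and 9 reads in CK. Only comp25073_c0 and comp26628_c0, with 348 and 555 CK reads, were higher on more than 10 reads in each library. This grouping of enzymes was made with the values known, and the contrast between both sets is a description.

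Phytoene synthase commits geranylgeranyl diphosphate to carotenoids. Its main gene, comp23339_c0, had 11.4 RPKM under LP against 8.07 RPKM under CK (1.42-fold higher, 1.23 to 1.66), and a second one, comp20611_c0, had 2.66 RPKM and 0.33 RPKM on 174 and 8 reads (8-fold higher, 3.97 to 18.8). The single or main genes of the enzymes that carry phytoene to lycopene had log2 ratios from -0.36 to 0.03. Phytoene desaturase comp21401_c0 had 20.0 RPKM under LP against 25.99 RPKM under CK, zeta-carotene desaturase comp5614_c0 had 43.0 RPKM and 46.0 RPKM, and carotenoid isomerase comp24649_c0 had 43.2 RPKM and 42.2 RPKM. A low second isomerase gene, comp141751_c0, had 1.71 RPKM and 0.78 RPKM on 12 and 2 reads. It was 2.21-fold higher without the pseudocount (0.49 to 20.3). The 6 genes of this stretch summed to 122 RPKM under LP against 123 RPKM under CK.

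Of the 12 genes for the cyclase, hydroxylases and ketolase that form the ring carotenoids, 1 was at least 2-fold higher and 0 were lower. That gene, comp26966_c0, had 46.9 RPKM under LP against 22.2 RPKM under CK (2.11-fold higher, 1.90 to 2.22), just past the limit. The table names it carotenoid epsilon-ring hydroxylase, whereas its GO terms name brassinosteroid metabolism. The beta-carotene hydroxylase gene comp9743_c0 had 14.6 RPKM under LP against 29.0 RPKM under CK (1.99-fold lower, 1.81 to 2.17), and its sister comp21722_c0, with the same protein entry, had 23.3 RPKM and 19.2 RPKM. The lycopene beta cyclase gene comp15008_c0 had 2.96 RPKM under LP against 5.98 RPKM under CK (2.02-fold lower by RPKM, 1.57 to 2.57), a log2 ratio of -0.82 on the scale used for the counts. The low epsilon-ring hydroxylase gene comp122172_c0 had 0.82 RPKM against 2.59 RPKM on 22.4 and 26 reads, 3.15-fold lower without the pseudocount (1.75 to 5.94), with a log2 ratio of -0.98.

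The xanthophyll cycle converts violaxanthin and zeaxanthin into each other, and in leaves it guards against excess light. Zeaxanthin epoxidase, which is also an early step towards abscisic acid, had a single gene, comp21829_c0, at 27.5 RPKM under LP against 45.4 RPKM under CK (1.65-fold lower, 1.56 to 1.73). Violaxanthin de-epoxidase, which runs the reverse step, had the gene with the highest log2 ratio of the carotenoid pathway, comp23817_c0, at 13 RPKM under LP against 2.61 RPKM under CK (4.98-fold higher, 3.97 to 6.34). Its other 2 genes lay below 0, comp1712_c0 at 2.22 RPKM under LP against 3.81 RPKM under CK and comp17802_c0 at 3.27 RPKM and 4.01 RPKM.

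**Figure D5:**
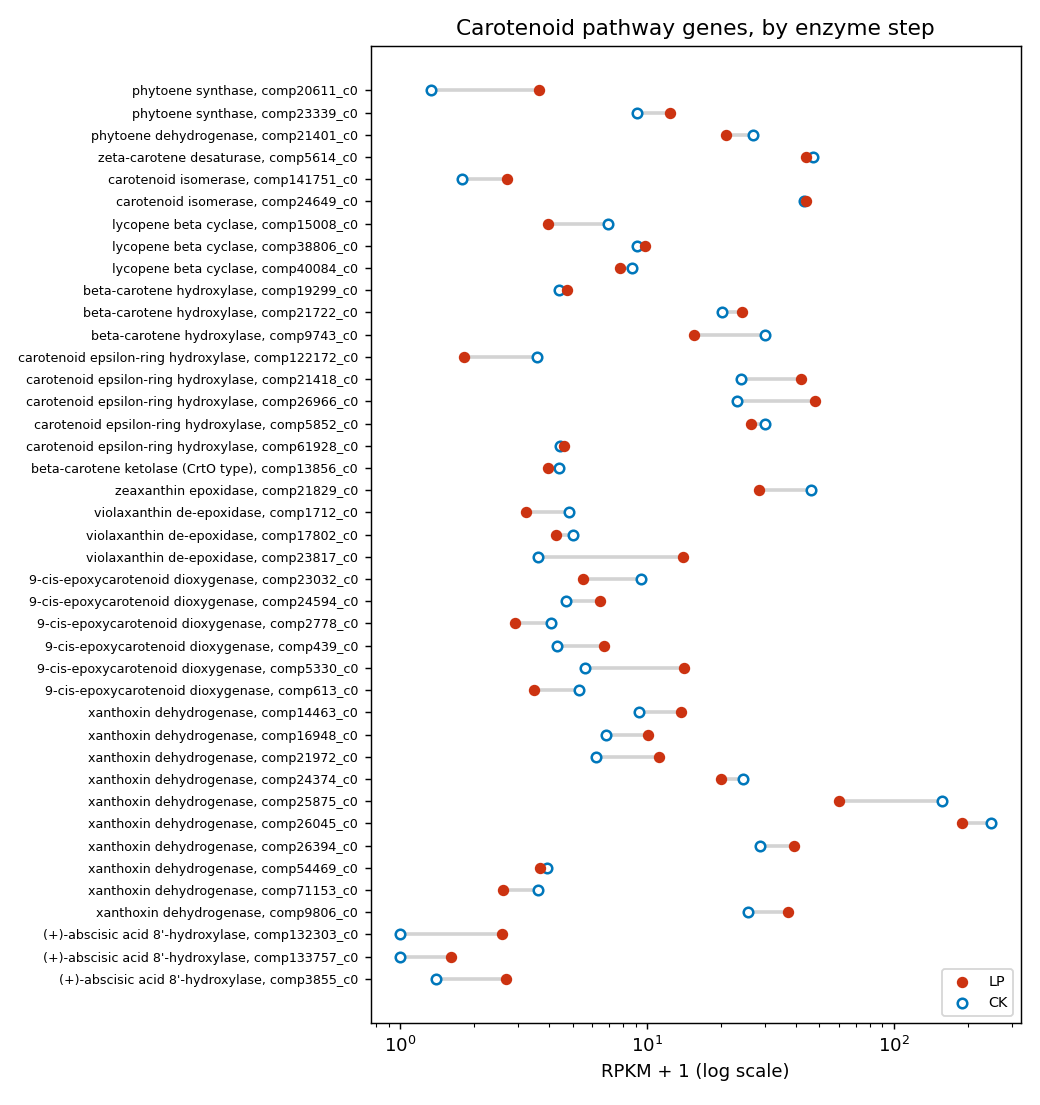
Level of the 41 carotenoid pathway genes in LP (red, filled) and CK (blue, open) as RPKM + 1 on a log scale, listed by enzyme step from phytoene synthase to abscisic acid breakdown. Most pairs lie close together. LP lies well to the right for comp23817_c0 (violaxanthin de-epoxidase), comp20611_c0 (phytoene synthase), comp132303_c0 (abscisic acid 8'-hydroxylase) and comp5330_c0 (9-cis-epoxycarotenoid dioxygenase). For comp25875_c0 (xanthoxin dehydrogenase) LP lies well to the left.

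Abscisic acid is made by cleavage of an epoxycarotenoid to xanthoxin, the step held to limit the rate, and by oxidation of xanthoxin through a short-chain dehydrogenase. Of the 6 genes named 9-cis-epoxycarotenoid dioxygenase, 3 lay above and 3 below 0. The highest, comp5330_c0, had 13.1 RPKM under LP against 4.61 RPKM under CK (2.84-fold higher, 2.41 to 3.39). It belongs to 4 of these genes that carry a plastoglobule term without the named activity. The 2 genes whose GO terms do name that activity split, comp23032_c0 with 4.53 RPKM under LP against 8.44 RPKM under CK, and comp439_c0 with 5.71 RPKM and 3.30 RPKM.

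Of the 10 genes named xanthoxin dehydrogenase, 0 were at least 2-fold higher and 1 was lower. The most abundant, comp26045_c0, had 188 RPKM under LP against 247 RPKM under CK (1.31-fold lower, 1.26 to 1.35). The next, comp25875_c0, had 59.2 RPKM under LP against 155 RPKM under CK (2.63-fold lower, 2.41 to 2.67), and stayed past 2-fold under TMM scaling with a log2 ratio of -1.09. Another 6 genes match the same entry as comp25875_c0, and those 7 split 3 above and 4 below 0. The summed level of the 10 genes was 378 RPKM under LP against 502 RPKM under CK. Breakdown of the hormone starts with abscisic acid 8'-hydroxylase, whose 3 genes together had 135 reads in LP and 9 in CK, a fold of 5.52 by reads (2.82 to 12.3). Of these genes, 2 had 0 reads in CK and were not kept.

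Among the 53 kept genes whose mean reached 10 RPKM, 4 were at least 2-fold higher and 10 lower, while among the 50 kept genes under 10 RPKM 8 were higher and 0 lower. In CK 12 of the 105 genes had under 10 reads, against 2 in LP, and 5 of the 12 higher genes were among those 12. No lower gene had under 10 reads in LP. Among all genes with a product name, 6.08% were higher and 5.65% lower where the mean reached 10 RPKM, and 13.8% and 16.4% where it did not. Of the terpenoid genes, 7.55% were higher and 18.9% lower where the mean reached 10 RPKM, and 16% and 0% where it did not. On the deposited scale, their share of lower genes thus lay above the background among the abundant genes and under it among the low ones. Under TMM scaling 4 of the 10 lower genes fell short of 2-fold, and the shares by level were not recomputed. Among the low genes, comp23631_c0 and comp122172_c0 lay just short of the limit, with log2 ratios of -0.99 and -0.98. The share of the low terpenoid genes that was higher, 16%, lay near its background. The LP library holds 2.72 times as many reads as the CK library, and the part of this depth gap in these counts was not tested.

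In the authors' deposited table, 18 of the 105 genes are called as differing, 8 higher and 10 lower in LP, or 17.1% against 10.4% of all genes. That background includes genes without a product name and genes under the limit of 1 RPKM, so the shares are not of like genes. All 18 are among the 22 genes at least 2-fold apart here. Both rest on the same 2 libraries, so the overlap is no independent check. Within 2-fold, comp26397_c0, comp26045_c0 and comp9209_c0 have an FDR of 0.01, and comp9410_c0 and comp26062_c0 one of 0.04, yet none is called. Among these, comp26397_c0 was higher in LP and the others were lower. By pathway, the authors' deposited table calls 4 backbone, 2 monoterpenoid, 9 diterpenoid and 3 carotenoid genes. In it, 5 of the 18 called genes have an FDR above 0.05, so the calls do not follow the FDR alone. Those p-values compare 2 libraries and not the phosphorus levels.

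Neighbouring pathways were measured in the same way. Of the 25 kept steroid biosynthesis genes, which draw on the mevalonate route, 5 passed 2-fold upwards and 0 downwards (median log2 ratio 0.15), and 4 of those 5 had 0 reads in CK. The most abundant of the 4 was sterol 24-C-methyltransferase comp10376_c0, with 13.8 RPKM from 193 reads under LP. Of the 31 genes of ubiquinone and other terpenoid quinones, 5 were higher and 1 lower (median 0.17). Among these, tyrosine aminotransferase comp23271_c0 had 94.3 RPKM under LP against 37.7 RPKM under CK (2.50-fold higher, 2.36 to 2.68), and 4-hydroxyphenylpyruvate dioxygenase comp25391_c0, the next enzyme on the way to tocopherol and plastoquinone, had 188 RPKM and 77.1 RPKM (2.43-fold higher, 2.32 to 2.55). Of the 12 kept brassinosteroid genes 2 were higher and 0 lower (median -0.28). The background shares are again 8.68% and 16.2%. Product names were searched for the gibberellin receptor and DELLA proteins, and for abscisic acid receptors and their kinases and phosphatases. A further search looked for the words cytochrome P450 in the product names inside the pathways. Each matched 0 genes by the wording used, which does not show that such genes are absent.

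Green tissue markers were summed because many of these genes act in plastids. The 63 photosynthesis genes had 969 RPKM under LP against 1499 RPKM under CK, with 0 of them at 0 reads in LP and 2 in CK. Without PsbA, a plastid gene with 49.1 RPKM under LP against 434 RPKM under CK, the sums were 920 RPKM and 1065 RPKM, and the light-harvesting genes had 117 RPKM under LP against 88.3 RPKM under CK. Of the 61 kept, 3 passed 2-fold upwards and 14 downwards (median log2 ratio 0.03), beside 8.68% and 16.2% of all kept genes. The root label was set against these genes alone. Their part in the values of the plastid terpenoid genes was not tested.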

How the data were processed

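Root RNA libraries of 1 LP and 1 CK sample were analysed from 1 gene table. Per the file headers, the authors deposited for each assembled gene its estimated counts and RPKM in both libraries, with a length, an effective length, a best protein match, KEGG and GO annotation, a log2 fold change, a p-value with its FDR and a call. In the deposited table called genes have p-values of at most 0.05 and FDR values of up to 0.35. The assembler, aligner and counting tool have no statement in the sources used here. The labels' protocols speak of both RNA fractions with and without poly(A), so the RNA fraction is not settled. Estimated counts of genes that share transcripts or sequence depend on how reads were split.

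Genes averaging 1 RPKM or more over both libraries were kept, and log2 ratios used a pseudocount of 1 RPKM. Single folds are RPKM ratios where both libraries reach 1 RPKM and otherwise ratios of reads to library totals. Exact 95% intervals used whole reads (scipy 1.17.1), and TMM factors came from edgeR 4.0.16. With 1 library in each group no test was possible. A floor of 3 reads corresponds, for a gene of 1000 bases, to 0.0619 RPKM (LP) or 0.168 RPKM (CK). Above a mean of 2 RPKM, the rule named the 3 highest and 3 lowest log2 ratios and the 3 most abundant genes of each pathway, and the highest, lowest and most abundant gene of each enzyme role. Other genes named in the text, and the split between cyclases and oxidation steps, were chosen after their values were seen. The gene set and all lists were chosen with earlier results of these data known. Sequences of the assembled genes were not used here.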

Additional observations from a re-analysis of the deposited data

How the results depend on the processing

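The count of 12 genes at least 2-fold higher in LP became 6 with a pseudocount of 5 RPKM. It became 7 when at least 10 reads were required in each library, and 5 at a limit of 4-fold. These shares of 5.83%, 7.53% and 4.85% stood beside 4.96%, 4.86% and 4.07% of all genes kept in each setting. The count of 10 lower became 6 under TMM (5.83% beside 11.5%) and 2 at 4-fold (1.94% beside 2.75%). With a pseudocount of 5 RPKM, 9 were lower (8.74% beside 3.27%), whereas the main setting had 9.71% beside 16.2%. The median log2 ratio of all genes of the set moved from 0.05 to 0.20 when centred on the median of all kept genes, 0.27 under TMM and 0.25 under median-of-ratios scaling. That of the backbone moved from 0.03 to 0.19, 0.27 and 0.25 in the same order. That of the mevalonate genes moved from -0.08 to 0.12 under TMM and 0.10 under median-of-ratios scaling, and that of the MEP genes from 0.16 to 0.40 and 0.38. Centring shifts all genes by 1 amount; TMM and median-of-ratios scaling also start from estimated counts in place of RPKM, and the cause of their moves was not tested. Of 12 alternatives run, 2 (leaving out genes under 500 bases, and RPKM recomputed from the counts) were chosen after seeing the data. Among the 38 genes named by rule, 17 lay past 2-fold; 0 of these changed sign and 7 fell short of 2-fold under at least 1 alternative. The sesquiterpenoid and triterpenoid pathway, with 0 genes, gives no value. No paired analysis was possible because each group has 1 library. The 17848911 CK reads limit the low genes: 12 genes had under 10 reads there.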

Other observations

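Further lists were drawn from GO terms after the data were seen, so their counts are descriptions. Gibberellin 2-beta-dioxygenase removes active gibberellin from the pool, and among the 3 genes annotated with this activity, all named aminocyclopropanecarboxylate oxidase in the table, 2 passed 2-fold upwards. The most abundant, comp16482_c0, had 283 RPKM under LP against 0.04 RPKM under CK, from a single CK read (6813-fold by reads, 1223 to 269103). The gene comp36717_c0 had 7.75 RPKM under LP against 2.50 RPKM under CK (3.10-fold), and comp25862_c0, within 2-fold, had 96.9 RPKM against 67.1 RPKM. Of 14 genes with gibberellin signalling terms, 3 were higher and 1 lower (median log2 ratio -0.07). Of the 85 kept genes with abscisic acid signalling terms, 6 were higher and 14 lower (median -0.24), beside 8.68% and 16.2% of all kept genes.

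Of 4 genes outside the set with pinene, limonene or myrcene synthase terms, 0 were higher and 1 lower (median -0.35). The most abundant, comp22335_c0, had 236 RPKM under LP against 171 RPKM under CK, and comp11554_c0 had 0.39 RPKM against 10.99 RPKM.

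Taxadiene 5-alpha-hydroxylase oxidises a diterpene skeleton in yew. Its GO term stands on 9 genes, of which 7 were kept. These summed to 166 RPKM under LP against 431 RPKM under CK, with 1 higher and 2 lower. The 3 past 2-fold are P450 genes by product name. The gene comp25986_c0 had 109 RPKM against 341 RPKM, comp25144_c0 had 10.6 RPKM against 70.6 RPKM, and comp19769_c0 lay the other way with 28.5 RPKM against 0.65 RPKM. The 8 protein prenylation genes, which attach farnesyl or geranylgeranyl chains to proteins, all stayed within 2-fold (median -0.08), with 176 RPKM under LP against 185 RPKM under CK in sum.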
